A study of Mus musculus with 16 samples.

Results

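The genes described here are 10 genes of major histocompatibility complex (MHC) class I antigen presentation in mouse: the heavy chain genes H2-D1, H2-K1, H2-Q4, H2-Q6 and H2-Q7, the light chain gene B2m, the immunoproteasome genes Psmb8 and Psmb9, the peptide transporter gene Tap1 and the loading chaperone gene Tapbp. They were chosen by symbol from the 32286 features of the series, and all 10 were listed in each of the 16 matrices. H2-D1, H2-K1, H2-Q4 and B2m are genes that the study itself named from these tumor samples, so their direction in tumor cells is not independent evidence. The question was whether the higher level of these genes in tumor cells after inhibition of the CBP/P300 bromodomain was shared by macrophages, lymphocytes and bone marrow cells.

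MHC class I molecules show peptides from inside the cell to CD8+ T cells. The immunoproteasome cuts cytosolic proteins into peptides, the Tap1/Tap2 transporter carries the peptides into the endoplasmic reticulum, and tapasin, the product of Tapbp, helps to load them onto a heavy chain paired with β2-microglobulin. Nearly all nucleated cells carry class I, leukocytes at high levels, and interferons raise the transcription of most of these genes through factors such as Irf1 and Nlrc5, the latter a transactivator of class I genes. H2-D1 and H2-K1 encode classical heavy chains, and H2-Q4, H2-Q6 and H2-Q7 encode nonclassical ones.

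Single-cell RNA-Seq was done on female wild-type BALB/c mice. The tumor samples came from mice bearing 2208L, a transplanted Trp53-null mammary tumor, and held 1 library each of live cells after vehicle, the oral CBP/P300 bromodomain inhibitor IACS-70654, anti-PD1 antibody, or both agents (combination). The marrow samples held 2 libraries for each of 3 groups, ctrl (wild-type mice without a tumor), vehicle and IACS-70654 (the last 2 from mice with a 2208L tumor), in each of 2 sorts: CD45+ Ter119- cells, and lineage- c-Kit+ CD45+ progenitors. Each library pooled cells of 3 mice, and treatment lasted 7 days by the labels, though the study's text gives a shorter course for the marrow. The tumor is 1 transplanted line, and no group received anti-PD1 in the marrow. Nothing in the labels says whether the 2 marrow libraries of a group came from separate mice, so the p-values below measure only the spread between libraries, which may be technical.

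The libraries held 15590289 to 68415534 unique molecular identifiers (UMIs), and 73176 cells passed the filters, 13830 from tumors, 31191 from the CD45+ sort and 28155 from the c-Kit+ sort. Libraries of a sort had 0 cell barcodes in common. Levels are given as CPM (a gene's counts scaled to the same total of UMIs in each sum), taken over the cells of a class in 1 library. Cell classes were rebuilt by clustering and named from marker genes. The 12 tumor cell markers summed to 7387 CPM in the tumor cells of the vehicle library and to 7493 CPM in those of the IACS-70654 library, against 128 and 93.2 CPM in the macrophages of the same libraries, so the class carries the markers of its name.

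All members but B2m lie on chromosome 17, in the MHC. In the GRCm38 annotation Tapbp lies at chr17:33915899-33929292, H2-K1 at chr17:33996017-34000347, Psmb9 at chr17:34181987-34187764, Tap1 at chr17:34187553-34197225 and Psmb8 at chr17:34197721-34201454. H2-D1 follows at chr17:35262730-35267499, H2-Q4 at chr17:35379617-35385290, H2-Q6 at chr17:35424850-35430055 and H2-Q7 at chr17:35439155-35443773. B2m lies at chr2:122147686-122153083. Psmb9 and Tap1 lie head to head on opposite strands with overlapping first parts.

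The stretches just before the gene starts are printed for 4 members, those whose promoter window holds at least 200 bases before any annotated exon, to show what the promoters share. They were taken from RefSeq (GRCm38.p6, 5′ to 3′ on the strand of the gene). They are H2-K1 at chr17:34000348-34000597 (minus strand), H2-Q6 at chr17:35424600-35424849 (plus strand), H2-Q7 at chr17:35438905-35439154 (plus strand) and B2m at chr2:122147437-122147685 (plus strand). Capitals mark every match on either strand to 4 motifs: GGGNNTTCC, the core of an NF-kappaB site, TTTCNNTT, the core of an interferon response element, TGACG, a CREB/ATF element, and ATTGG, the inverted CCAAT box.
H2-K1: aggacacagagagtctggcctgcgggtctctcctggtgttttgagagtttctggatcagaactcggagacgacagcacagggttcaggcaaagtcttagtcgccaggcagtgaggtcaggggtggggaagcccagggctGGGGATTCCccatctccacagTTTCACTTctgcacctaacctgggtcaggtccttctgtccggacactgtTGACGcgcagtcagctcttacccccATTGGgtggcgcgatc
H2-Q6: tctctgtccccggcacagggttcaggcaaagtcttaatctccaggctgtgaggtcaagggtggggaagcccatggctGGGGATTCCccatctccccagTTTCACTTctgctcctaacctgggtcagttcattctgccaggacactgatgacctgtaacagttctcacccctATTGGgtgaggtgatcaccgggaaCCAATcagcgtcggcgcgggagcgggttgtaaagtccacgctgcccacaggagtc
H2-Q7: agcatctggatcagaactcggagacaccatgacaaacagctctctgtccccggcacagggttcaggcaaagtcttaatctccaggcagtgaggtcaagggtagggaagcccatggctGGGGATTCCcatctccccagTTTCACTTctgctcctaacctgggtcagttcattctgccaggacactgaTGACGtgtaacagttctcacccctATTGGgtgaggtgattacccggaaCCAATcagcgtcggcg
B2m: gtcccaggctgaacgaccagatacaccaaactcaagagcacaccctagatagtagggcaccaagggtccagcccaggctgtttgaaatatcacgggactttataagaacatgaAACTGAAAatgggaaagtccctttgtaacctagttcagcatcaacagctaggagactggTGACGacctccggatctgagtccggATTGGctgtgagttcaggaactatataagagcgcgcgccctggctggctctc

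In H2-K1 and H2-Q7 the 4 elements stand in the order named towards the gene start. H2-Q6 holds 3 of them in that order and has no TGACG. The NF-kappaB site began 111 bases before the start of H2-K1, 173 before H2-Q6, 133 before H2-Q7, 171 before H2-D1 and 173 before H2-Q4, so that 5 of 10 members held one, all heavy chain genes, against 4.881% of 27025 promoter windows of all genes. The interferon element was in 6 of the 10 members' windows, the 5 heavy chain genes and B2m, against 21.57% of all windows. TGACG was in 7 of 10 against 17.86%, and ATTGG in 9 of 10, all but Psmb8, against 34.46%. The motifs were chosen after these windows had been seen, so the shares describe the windows and are no test of enrichment. Nor do the heavy chain genes count as separate cases, since some of their windows are alike in sequence. Laid side by side without gaps, the H2-Q6 and H2-Q7 windows were identical at 71.56% of 211 positions and those of H2-K1 and H2-D1 at 87.37% of 190. H2-Q7 lacks a base that H2-Q6 has between the NF-kappaB site and the interferon element. Without gaps only the part after that base is lined up. The value for H2-Q6 and H2-Q7 thus understates their likeness and cannot be ranked against that of H2-K1 and H2-D1. Such matches describe letters in a reference genome of the C57BL/6 strain (H2-b haplotype), whereas BALB/c mice carry H2-d. Reads of the heavy chain genes, above all of the near-identical H2-Q6 and H2-Q7, may be shared out between copies or lost in mapping, so that the levels of single heavy chain genes are uncertain and a comparison between treatments is safer than one between genes.

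In tumor cells all 10 genes were higher after IACS-70654 than after vehicle (816 against 396 cells). The log2 ratio of CPM lay between 0.69 and 2.20 and every interval was above 0. A log2 ratio over 0.5 was seen for 10 of 10 members against 18.3% of the 12778 genes with enough counts, whose median ratio was 0.12, and 0 of 10 were lower by as much, against 8.71%. With 1 library per condition there is no replicate and no test. The intervals given are exact 95% intervals that cover counting error only.

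**Figure D1:**
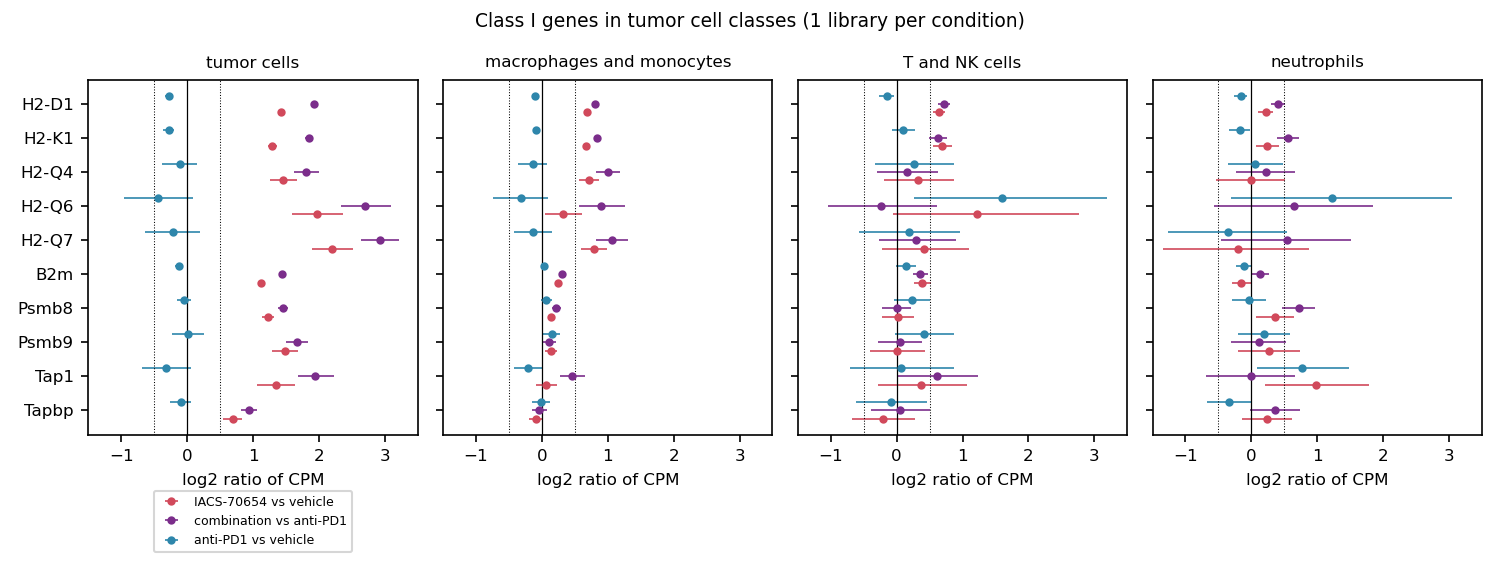
Log2 ratio of CPM for each of the 10 genes (rows) in tumor cells, macrophages and monocytes, T and NK cells and neutrophils of the tumors, for 3 comparisons of single libraries. Points are ratios, bars exact 95% counting intervals, dotted lines a log2 ratio of 0.5 either way, and genes with under 20 UMIs in the pair are not drawn. All 10 genes lie above 0.5 in tumor cells with IACS-70654, alone or beside anti-PD1. In macrophages and monocytes the genes above 0.5 are heavy chain genes, and in neutrophils with IACS-70654 against vehicle Tap1 is the only one.

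Among the classical heavy chains, H2-D1 stood at 876 CPM after vehicle and 2349 CPM after IACS-70654, for a log2 ratio of 1.42 (interval 1.38 to 1.46). H2-K1 stood at 375 and 919 CPM, a log2 ratio of 1.29 (1.23 to 1.36). The nonclassical genes had larger ratios from lower levels. H2-Q4 went from 35.2 to 96.8 CPM, a log2 ratio of 1.46 (1.25 to 1.67). H2-Q6 went from 10.3 to 40.3 CPM, a log2 ratio of 1.97 (1.60 to 2.37), and H2-Q7 from 14.7 to 67.5 CPM, a log2 ratio of 2.20 (1.89 to 2.52). Their intervals did not overlap those of the classical genes, with the exception of H2-Q4. B2m, the light chain that all heavy chains need, stood at 829 and 1802 CPM, a log2 ratio of 1.12 (1.08 to 1.16).

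The genes that make and load the peptides were higher as well. Psmb8, a catalytic subunit of the immunoproteasome, stood at 214 CPM after vehicle and 500.4 CPM after IACS-70654, a log2 ratio of 1.23 (1.14 to 1.31). Psmb9, a second catalytic subunit, stood at 39.2 and 109 CPM, a log2 ratio of 1.48 (1.28 to 1.68). Tap1 stood at 18.8 and 47.9 CPM, a log2 ratio of 1.35 (1.06 to 1.64). Tapbp had the lowest ratio of the 10, with 88.8 and 143 CPM and a log2 ratio of 0.69 (0.55 to 0.83), and its interval lay below those of the other 9 members. Summed over the 10 genes, of which H2-D1, B2m and H2-K1 give most UMIs, the level was 2501 CPM after vehicle and 6075 CPM after IACS-70654, a log2 ratio of 1.28 (1.26 to 1.31). With TMM scaling in place of library totals the median over all genes was 0.03, not 0.12, and the summed ratio 1.18, which left 10 of 10 members over 0.5.

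A second pair of libraries, which shares none with the first, gave the same direction. With anti-PD1 in both arms, all 10 genes were over 0.5 in the combination against anti-PD1 alone (1229 against 500 tumor cells), with 17.1% of all genes over 0.5. H2-D1 stood at 723 and 2744 CPM, a log2 ratio of 1.92, and H2-K1 at 308 and 1115 CPM, a log2 ratio of 1.85. The range ran from 0.94 for Tapbp (interval 0.82 to 1.06, 83.0 and 159.6 CPM) to 2.92 for H2-Q7 (2.64 to 3.22, 12.6 and 95.6 CPM), the same ends of the list as without the antibody. B2m, Psmb8, Psmb9 and Tap1 had log2 ratios of 1.45, 1.45, 1.67 and 1.94. The summed level was 2187 CPM after anti-PD1 and 7095 CPM after the combination, a log2 ratio of 1.70 (1.68 to 1.72).

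Anti-PD1 alone went with no such difference. Against vehicle, 0 of 10 genes were over 0.5 in tumor cells, with 6.84% of all genes higher and 5.64% lower. Their log2 ratios lay between -0.44 for H2-Q6 and 0.01 for Psmb9, and the summed ratio was -0.19 (interval -0.22 to -0.16). The combination against IACS-70654 alone gave log2 ratios from 0.16 for Tapbp to 0.50 for H2-Q7, so that only H2-Q7 passed 0.5, against 5.25% of all genes higher. In summed level the 4 tumor libraries stood in the order anti-PD1, vehicle, IACS-70654 and combination, with a larger step from vehicle to IACS-70654 than from anti-PD1 to vehicle or from IACS-70654 to the combination.

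Related genes of the pathway are read against the 18.3% of all genes over 0.5 in tumor cells. Of the 10 other class I heavy chain genes with enough counts, 8 were over 0.5 in tumor cells after IACS-70654 (median log2 ratio 0.87), with H2-T22 at 1.81, H2-T23 at 0.77 and Cd1d1 at -0.22. Of 9 other processing and loading genes 4 were over 0.5 (median 0.43): Tap2, the partner of Tap1, at 1.48, the immunoproteasome subunit Psmb10 at 0.77, the proteasome activator Psme2 at 0.75 and the tapasin relative Tapbpl at 0.56. The general chaperones Pdia3, Calr and Canx, which also serve class I folding, were at 0.11, 0.01 and -0.03. Of 14 constitutive proteasome subunits 3 were over 0.5 (median 0.38), a share near that of all genes.

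Among the regulators Nlrc5 stood at 4.42 CPM after vehicle and 14.5 CPM after IACS-70654, a log2 ratio of 1.71, whereas Irf1 had 0.32. The lists of type I interferon and of interferon gamma response genes were over 0.5 in 14 of 14 and 15 of 15 members, with medians of 1.95 and 1.72, led by Ifit3 at 3.38 in the first and the chemokine gene Cxcl9 at 5.33 in the second. MHC class II genes, which present peptides from outside the cell, were over 0.5 in 1 of 7 (median 0.22).

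The difference was also measured within clusters of tumor cells. In the 5 tumor cell clusters that held at least 20 cells after both treatments, the summed level of the 10 genes was higher after IACS-70654 in 5 of 5, with log2 ratios from 0.23 to 1.11 and a median of 0.89. The cluster marked by Igfbp5 and Prtn3 went from 1873 to 4052 CPM, and the one marked by Cpm and Naaladl2 from 1767 to 3485 CPM. The cluster marked by Clu and Cited4, with the highest level after vehicle (6779 CPM), had 7945 CPM after IACS-70654. There 1 of 10 genes was over 0.5 (H2-Q7) and 1 lower by as much, with 15.4% of all genes higher and 13.4% lower, whereas 8 to 10 genes were over 0.5 in each of the other 4 clusters. The cluster marked by Krt8 and Hmga2 held 29 cells after vehicle and 275 after IACS-70654, at 3920.2 and 7289 CPM, so the class as a whole differed in its makeup as well as within its clusters. For the combination against anti-PD1 4 of 4 clusters were higher, by 1.16 to 1.45.

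**Figure D2:**
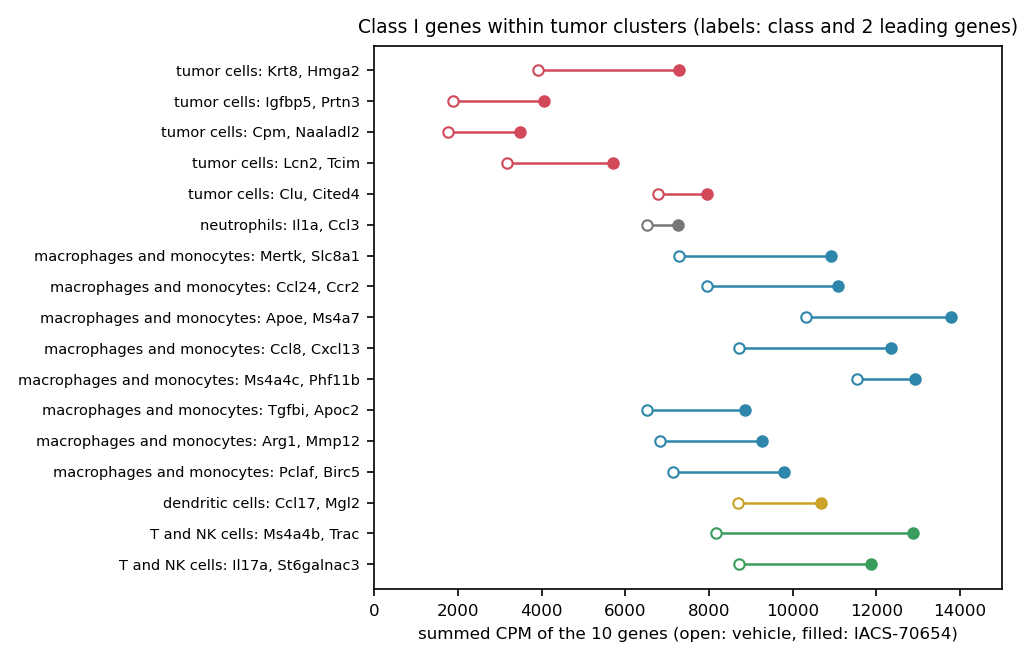
Summed CPM of the 10 genes (x axis) in each cluster of the tumor libraries (rows, named by leading genes and grouped by class), for vehicle (open) and IACS-70654 (filled). All 5 tumor cell clusters and all 8 macrophage clusters lie higher after IACS-70654. After vehicle 4 of the 5 tumor cell clusters lie below each macrophage cluster, and the one led by Clu and Cited4, at 6779 CPM, lies among them.

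Per cell, the 10 genes took a median of 0.157% of the UMIs of a tumor cell after vehicle (quartiles 0.0925% and 0.309%) and 0.482% after IACS-70654 (0.266% and 0.758%). The medians were 0.161% after anti-PD1 and 0.608% after the combination. The lower quartile with IACS-70654 was thus above the median without it. Tumor cells also held UMIs of macrophage genes. The complement genes C1qa, C1qb and C1qc, made by macrophages, stood in tumor cells at 4.41% of their macrophage level after vehicle, 5.30% after IACS-70654, 1.96% after anti-PD1 and 4.00% after the combination, and the same shares of the macrophage level of the 10 genes would come to 356, 614, 153 and 482 CPM. In tumor cells without any UMI of Ptprc or these complement genes (59 and 149 cells) the summed log2 ratio of IACS-70654 to vehicle was 1.84 (interval 1.75 to 1.93) with 10 of 10 over 0.5, and that of the combination to anti-PD1 was 1.64. In these cells the ratio of anti-PD1 to vehicle was 0.43, the opposite sign to that over all tumor cells.

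Macrophages and monocytes shared the difference in the heavy chains only in part. After IACS-70654 (3258 against 867 cells) 4 of 10 genes were over 0.5, with 10.3% of all genes higher. H2-D1 stood at 3526 CPM after vehicle and 5657 CPM after IACS-70654, a log2 ratio of 0.68 (0.66 to 0.70), and H2-K1 at 1451 and 2300.4 CPM, a ratio of 0.66. H2-Q4 (73.8 and 121 CPM) and H2-Q7 (40.6 and 70.1 CPM) had ratios of 0.71 and 0.79. B2m was at 2021 and 2401 CPM, a ratio of 0.25. Psmb8 and Psmb9 had log2 ratios of 0.15 and 0.14, Tap1 0.07 (-0.09 to 0.23) and Tapbp -0.09 (-0.19 to 0.01). In these cells 4 of 5 heavy chain genes passed 0.5, and 0 of the 4 genes that make and load peptides did.

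The combination against anti-PD1 (3100 against 734 macrophages and monocytes) gave 5 of 10 genes over 0.5, all 5 of them heavy chain genes with log2 ratios of 0.81 to 1.06, against 10.2% of all genes. B2m was at 0.30, Psmb8 at 0.22, Psmb9 at 0.11, Tap1 at 0.46 and Tapbp at -0.04. The summed level was 8075 CPM after vehicle and 11583 CPM after IACS-70654, a log2 ratio of 0.52 (0.51 to 0.53), and 7810 and 12054 CPM in the second pair, a ratio of 0.63 (0.61 to 0.64). Within macrophage clusters it was higher in 8 of 8 in either pair, by 0.16 to 0.59 and by 0.20 to 0.85. The genes that passed varied between clusters. In the second pair the cluster led by Mertk had 8 of 10 genes over 0.5, Psmb8, Psmb9 and Tap1 among them, with 14.6% of all genes higher, and the cluster led by Ms4a4c had 0 over 0.5 and 2 lower, with 24.4% of all genes higher and 15.7% lower. Tap1 or B2m passed beside the heavy chains in 3 more clusters, so the pattern over the class was not that of each cluster. Because macrophages started higher, the summed level in tumor cells came to 31.0% of that in macrophages after vehicle and 28.0% after anti-PD1, but to 52.4% after IACS-70654 and 58.9% after the combination.

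**Figure D3:**
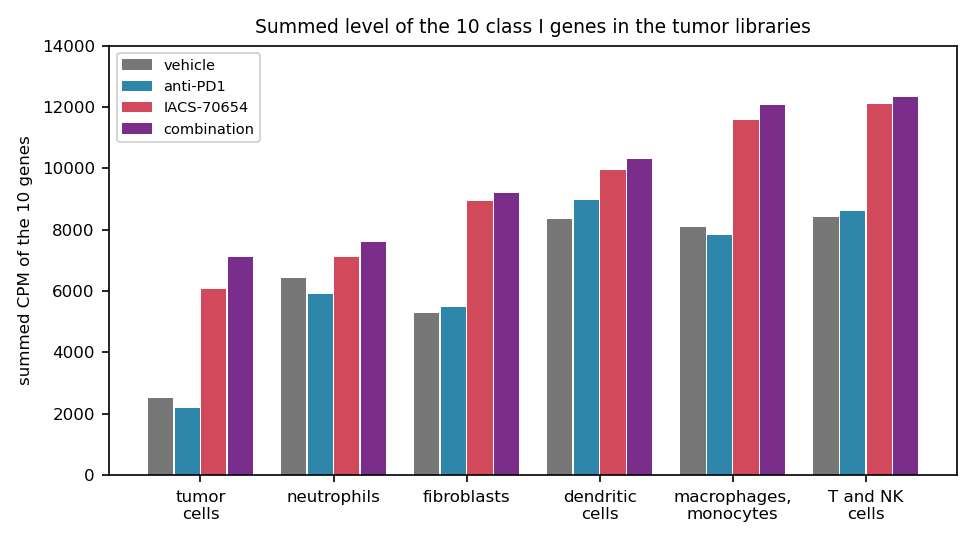
Summed CPM of the 10 genes (bars from 0) in 6 cell classes of the tumors after vehicle, IACS-70654, anti-PD1 and the combination, 1 library each. Tumor cells are lowest after vehicle and anti-PD1, at 2501 and 2187 CPM, and reach 6075 and 7095 CPM with IACS-70654, still below the macrophages.

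In T and NK cells of the tumor (142 against 100 cells) 3 of 10 genes were over 0.5 after IACS-70654, with 22.3% of all genes higher at this depth. H2-D1 stood at 3671 and 5729 CPM, a log2 ratio of 0.64 (0.55 to 0.74), and H2-K1 at 1543 and 2489 CPM, a ratio of 0.69 (0.55 to 0.84). The third was H2-Q6, at 1.22 from 6 and 33 UMIs (-0.05 to 2.77). B2m was at 0.39 (0.26 to 0.53), and Psmb8 and Psmb9 at 0.02 and 0.00065. The class was of another makeup in each library. Its cluster led by Ms4a4b and Trac held 79 cells after vehicle and 64 after IACS-70654, and the one led by Il17a held 21 and 78. Within the first 7 of 9 genes were over 0.5, with 22.8% of all genes higher, B2m, Psmb9 and Tap1 among them. Within the second 5 of 10 were, with 26.6% of all genes higher, Tap1 being the only one besides heavy chain genes. The values over the class were thus not those of its clusters. The combination against anti-PD1 gave 3 of 10 (H2-D1 0.72, H2-K1 0.63, Tap1 0.61), with 20.2% of all genes higher. In that pair the cluster led by Ms4a4b and Trac (90 and 102 cells) had 4 of 10 genes over 0.5 and 1 lower. The 4 were H2-D1, H2-K1, H2-Q7 and Tap1, so B2m and Psmb9 did not repeat. There 21.9% of all genes were higher and 15.7% lower.

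Macrophage RNA moved with this result. In the T and NK class the complement genes stood at 35.7% of their macrophage level after vehicle and at 63.2% after IACS-70654, and the 15 macrophage markers at 38.5% and 69.6%. The 12 T and NK markers of the class stood at 3391 CPM after vehicle and 1843 CPM after IACS-70654. The same share of the macrophage level of the 10 genes would come to 2882 and 7323 CPM, beside 8402 and 12083 CPM measured. In T and NK cells without any complement gene UMI, 33 after vehicle and 30 after IACS-70654, the summed log2 ratio was 0.51 (0.36 to 0.66), close to 0.52 (0.46 to 0.59) over all cells of the class. In the second pair it was 0.39 in such cells and 0.52 in all.

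Other cells of the tumor differed less evenly. Neutrophils (246 against 471 cells) had a summed log2 ratio of 0.14 (0.07 to 0.22), with H2-D1 at 0.22, H2-K1 at 0.24 and B2m at -0.15, and TMM scaling, under which the median over all genes was -0.07 and not 0.09, turned the sum to -0.02. Only Tap1 passed 0.5 there, at 0.99 (0.20 to 1.78) from 27 and 32 UMIs, with 21.4% of all genes higher. This did not repeat in the second pair, where Tap1 in neutrophils was at 73.8 CPM both after anti-PD1 and after the combination. The summed level in that pair was 5901 CPM after anti-PD1 and 7606 CPM after the combination. Fibroblasts (38 against 46 cells) had 3 of 8 genes over 0.5, H2-D1 (1890.0 and 4087 CPM), H2-K1 (969 and 1896 CPM) and H2-Q4, with 21.7% of all genes higher. Dendritic cells (203 against 46) had H2-Q7 at 0.52 and H2-Q6 at -1.02 past 0.5, with 19.3% of all genes higher and 18.2% lower, and H2-D1 at 0.46. The genes past 0.5 varied between pairs. In the dendritic cell cluster led by Ccl17, H2-D1, H2-K1 and H2-Q7 were over 0.5 in the first pair, with 23.9% of all genes higher. For the combination against anti-PD1 they were H2-D1 and Tap1, with 21.7% of all genes higher. In either pair 2 members were lower, with 17.5% and 17.4% of all genes lower.

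In the bone marrow none of the 10 genes was called higher after IACS-70654 than after vehicle in any class tested. Over the 9 classes of the CD45+ sort, 86 tests of a member in a class were made with edgeR's quasi-likelihood test, and with IACS-70654 against vehicle 0 were called higher and 6 lower (called meaning an adjusted p under 0.01 with a log2 change beyond 0.5), beside 4.08% of all gene and class tests called higher and 4.08% lower. The estimate was below 0 in 60 of the 86 (median log2 change -0.16), and 36 had an unadjusted p under 0.05, 6 of them higher, a rule that 14.2% of all tests passed higher and 15.6% lower. Over the 7 classes of the c-Kit+ sort, 0 of 70 tests were called in either direction by edgeR, beside 2.56% of all tests higher and 3.77% lower. There 51 of the 70 estimates were below 0, and 33 had an unadjusted p under 0.05, 7 of them higher, beside 15.1% of all tests higher and 17.1% lower. DESeq2 also called 0. Within single clusters of the CD45+ sort 6 of 119 member tests were called lower by edgeR and 0 higher, beside 2.52% of all tests lower and 1.45% higher. They were H2-D1 in a cluster of mature neutrophils, H2-K1 and H2-Q7 in one of monocytes, and Psmb9 in 2 clusters of early neutrophil precursors, in one of them with H2-K1. Within single c-Kit+ clusters 6 of 186 were called lower and 0 higher, beside 2.3% of all tests lower and 1.37% higher, so that the share of members was near the background: H2-K1, H2-Q7 and Psmb8 in a cluster of neutrophil progenitors, H2-Q7 in one of monocyte progenitors and Psmb8 in 2 of erythroid progenitors.

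**Figure D4:**
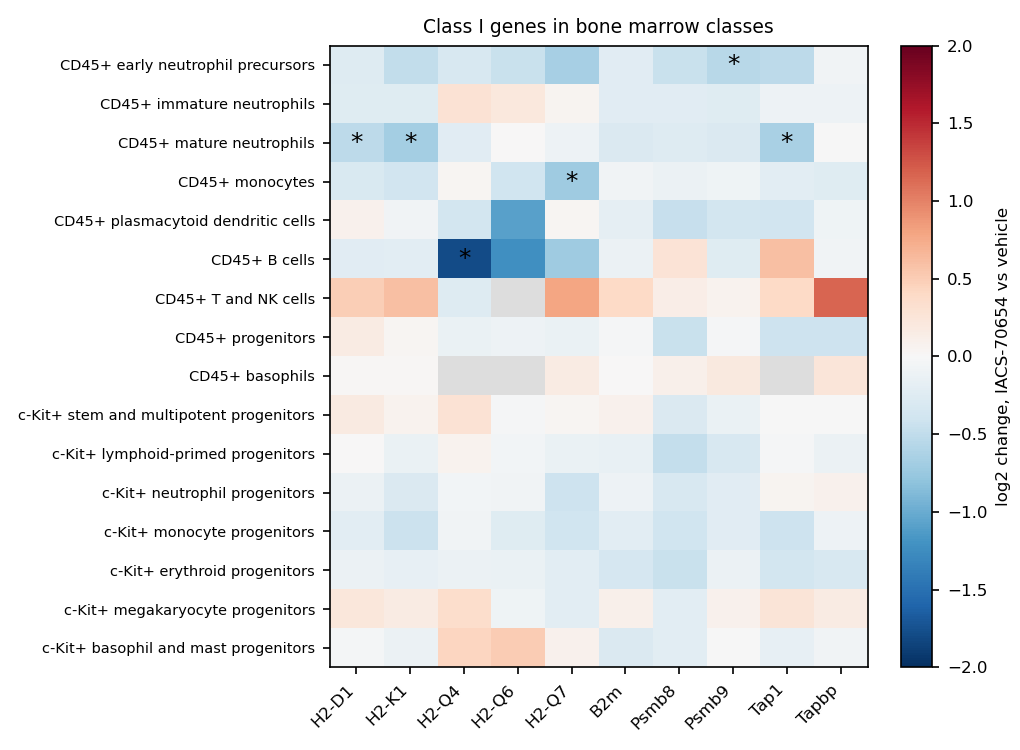
Log2 change with IACS-70654 against vehicle for the 10 genes (columns) in 16 marrow classes (rows, 2 sorts), with red for higher and blue for lower, an asterisk for a call by edgeR and grey for genes not tested. The 6 asterisks are all on the lower side, 3 of them in mature neutrophils. Rows with mostly positive estimates are T and NK cells, basophils and megakaryocyte progenitors, with no call among them.

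Mature neutrophils carried 3 of the 6 calls. H2-D1 stood at 1459 and 1447 CPM in the vehicle libraries and at 1139.6 and 1123 CPM in the IACS-70654 libraries, beside 1263 and 1271 CPM in ctrl. In CPM the groups did not overlap, and the treated libraries lay below ctrl as well. The log2 change against vehicle was -0.53 (SE 0.026, edgeR adjusted p = 1.5e-27). H2-K1 stood at 426 and 397 CPM after vehicle, 284 and 290.2 CPM after IACS-70654 and 378 and 369 CPM in ctrl, a log2 change of -0.68 (SE 0.037, adjusted p = 3.5e-25). Tap1, at 48.2 and 38.9 CPM after vehicle and 29.3 and 32.3 CPM after IACS-70654, fell by 0.64 on the log2 scale (SE 0.10, adjusted p = 3.8e-07), while one ctrl library was also at 32.3 CPM. B2m at -0.29, Psmb8 at -0.26 and Psmb9 at -0.29 were below the fold minimum, and Tapbp was at -0.01. In this class 11.5% of all genes were called higher and 8.61% lower.

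The size of these changes, and for the 10 genes summed also the order of the groups, depended on how counts were scaled. Mature neutrophils held 2641 and 2748 UMIs per cell in ctrl, 3011 and 3103 after vehicle and 3866 and 3860 after IACS-70654. UMIs of the 10 genes per cell were 6.87 and 7.19 in ctrl, 9.13 and 9.14 after vehicle and 9.54 and 9.49 after IACS-70654. Per cell the sum was thus not lower after IACS-70654 than in the other groups. UMIs of H2-D1 per cell were 4.39 and 4.49 after vehicle and 4.41 and 4.33 after IACS-70654, and those of H2-K1 1.28 and 1.23 against 1.099 and 1.12, whereas those of B2m were 2.25 and 2.23 against 2.57 and 2.61. With library totals in place of TMM the median change of all genes in the class moved from 0.02 to 0.18, its calls from 1197 higher and 898 lower to 1951 and 551, and only H2-K1 (-0.51) kept its call, H2-D1 being at -0.36 and Tap1 at -0.48. The class also held different clusters in the groups. Vehicle cells lay in a pair of clusters (938 and 1152 cells, 928 and 1104 cells) that held 27 to 33 cells of each treated library, and treated cells in another pair (991 and 1233, 620 and 772 cells). In the first of the vehicle clusters H2-D1 was the only member called lower (6 of 9 estimates below 0, median -0.26). In the second none was called, and 2 of 7 estimates were below 0 (median 0.23), the other way from the class as a whole.

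Single calls stood in 3 other classes of the CD45+ sort. In early neutrophil precursors Psmb9 was at 111 and 126 CPM after vehicle and 82.6 and 89.1 CPM after IACS-70654, a fall of 0.55 on the log2 scale (SE 0.085, edgeR adjusted p = 9.6e-06), and H2-K1 changed by -0.49, with 4.29% of all genes called lower. In monocytes H2-Q7 was at 37.5 and 36.2 CPM after vehicle, 21.8 and 22.9 CPM after IACS-70654 and 24.0 and 29.0 CPM in ctrl, a log2 change of -0.71 (SE 0.13, edgeR adjusted p = 8.8e-05), with 3.54% of all genes called lower. H2-K1 in monocytes was at 631 and 635 CPM after vehicle, 473 and 488 CPM after IACS-70654 and 538 and 575 CPM in ctrl, a change of -0.39 that passed the adjusted p (4.6e-09 by edgeR) but not the fold minimum over the class. B2m in monocytes was at 1430 and 1406 CPM after vehicle and at 1367 and 1333 CPM after IACS-70654, a log2 change of -0.06 that was not called.

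The estimates in marrow monocytes went the other way from the macrophages and monocytes of the tumor. There H2-D1 and H2-K1 had log2 ratios of 0.68 and 0.66, and in marrow monocytes -0.30 and -0.39. The tumor values come from single libraries of another tissue, and the difference between tissues was not tested.

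In marrow B cells H2-Q4 fell. It was at 114 and 115 CPM after vehicle (51 and 62 UMIs), at 30.03 and 32.6 CPM after IACS-70654 (7 and 14 UMIs) and at 88.9 and 89.1 CPM in ctrl, a log2 change of -1.79 (SE 0.29, edgeR adjusted p = 1.2e-04), with 3.6% of all genes called lower. The other 9 members were not called in B cells. The class was small after treatment (44 and 94 cells, against 125 and 145 after vehicle) and of another makeup. The cluster with high Ighd, a marker of mature B cells, held 30 and 75 cells after IACS-70654 but 2 and 7 after vehicle, and its H2-Q4 level was 24.9 and 31.0 CPM after IACS-70654, 0 and 35.5 CPM after vehicle and 51.3 and 78.7 CPM in ctrl. So few vehicle cells cannot show whether H2-Q4 differed in that cluster. The clusters that held most vehicle cells had few treated ones. In the one led by Reln and Cecr2, H2-Q4 was at 151 and 146 CPM after vehicle (60 and 75 cells) and at 68.4 and 42.5 CPM after IACS-70654 (4 and 4 cells), and in the one led by Agbl1 and Ms4a1 it was at 77.2 and 81.4 CPM (50 and 47 cells) and at 0 and 0 CPM (2 and 4 cells). In the cluster marked by the pre-B genes Vpreb1 and Igll1, H2-Q4 was at 102 and 106 CPM after vehicle and at 32.4 and 43.7 CPM after IACS-70654, from 13, 16, 8 and 11 cells. The part of this makeup in the change was not tested.

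Marrow T and NK cells were the class with the highest estimates, but no gene was called against vehicle, with 0.678% of all genes called higher. The class was small, with 122 and 79 cells in ctrl, 22 in vehicle replicate 1, under 20 in vehicle replicate 2 (left out) and 31 and 32 after IACS-70654. H2-K1 was at 1051 and 1021 CPM in ctrl, 1003 CPM after vehicle and 1493 and 1703 CPM after IACS-70654, a log2 change against vehicle of 0.61 (SE 0.17, edgeR adjusted p = 0.027). H2-D1 was at 1589 and 1476 CPM in ctrl, 1578 CPM after vehicle and 2272 and 2393 CPM after IACS-70654, a change of 0.50 (edgeR adjusted p = 0.060). Against ctrl, with 1.31% of all genes called higher, H2-D1 rose by 0.54 (edgeR adjusted p = 0.0016) and H2-K1 by 0.56 (edgeR adjusted p = 0.0024). The lone vehicle library did not bear this out cell by cell. The median share of a cell's UMIs taken by the 10 genes was 0.878% there, above 0.764% and 0.714% after IACS-70654 and 0.547% and 0.537% in ctrl. All these values are of the CD45+ sort. In the few T and NK cells of the c-Kit+ sort, which were not tested, the summed level was not higher after IACS-70654. It was 3455 CPM there (39 cells), 3651 CPM after vehicle (22 cells) and 3481 and 3522 CPM in ctrl.

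**Figure D5:**
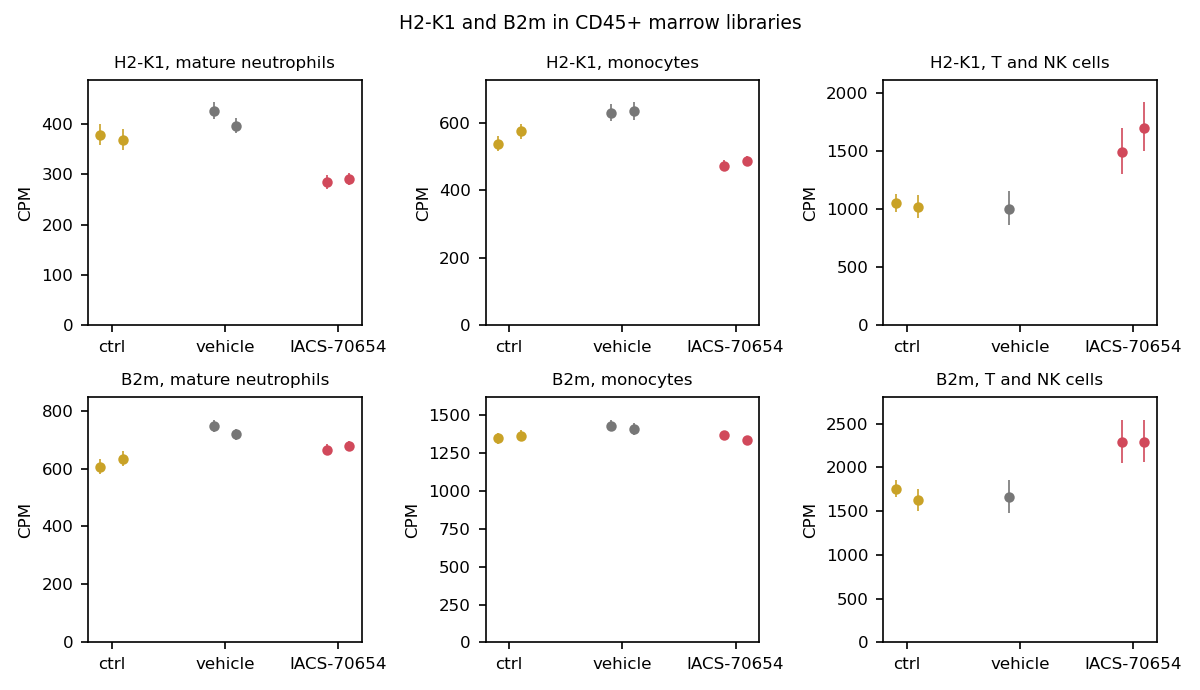
H2-K1 and B2m in CPM (y axis, with 95% counting intervals) in each CD45+ marrow library for mature neutrophils, monocytes and T and NK cells, by ctrl, vehicle and IACS-70654. H2-K1 is lowest with IACS-70654 in mature neutrophils and monocytes and highest in T and NK cells, where vehicle replicate 2 held under 20 cells and is missing.

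Whether classes differed in their change was tested directly in edgeR for 7 pairs of classes. Between T and NK cells and mature neutrophils the change with IACS-70654 differed by 1.47 for H2-K1 (SE 0.21, adjusted p = 1.8e-09), by 1.16 for H2-D1 (SE 0.21, adjusted p = 5.9e-06) and by 0.85 for B2m (SE 0.20, adjusted p = 0.0039), with 0.948% of all genes called. The vehicle arm of the T and NK cells is 1 library of 22 cells, assumed in this fit to vary like the other groups, so these p-values hold no measured spread of that arm. The first 2 kept their call with library totals, and B2m (0.62) did not. Between monocytes and mature neutrophils none passed the fold minimum, though H2-K1 differed by 0.34 (edgeR adjusted p = 2.0e-05), with 10.9% of all genes called. B cells had 2 calls against mature neutrophils (5.32% of all genes) and 1 against monocytes (3.54%), with H2-Q4 in both, and immature against mature neutrophils had 1, Tap1 (8.35%). In the c-Kit+ sort no member was called between stem and multipotent progenitors and either neutrophil or erythroid progenitors, with 2.42% and 3.53% of all genes called.

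Among c-Kit+ progenitors Psmb8 moved most evenly. Its estimate was below 0 in 7 of 7 classes, with log2 changes from -0.48 to -0.21. In monocyte progenitors it was at 480.0 and 461 CPM after vehicle, 369.9 and 368 CPM after IACS-70654 and 445 and 432 CPM in ctrl, a log2 change of -0.40. In erythroid progenitors it was at 149 and 152 CPM after vehicle and 112 and 106 CPM after IACS-70654, a change of -0.44, and B2m changed by -0.34 in the same cells. The treated libraries lay below both vehicle and ctrl in these classes, but each change was under the fold minimum. Stem and multipotent progenitors differed in direction between genes, since H2-D1 was at 660.0 and 654 CPM after vehicle and 757 and 755 CPM after IACS-70654 (log2 change 0.18) while Psmb8 changed by -0.29. Changes in the 10 genes in this sort lay between -0.48 and 0.51.

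Marrow of tumor-bearing mice was also compared with marrow of mice without a tumor. For vehicle against ctrl, 0 of 86 member tests in the CD45+ sort and 0 of 70 in the c-Kit+ sort were called by edgeR, and 0 by DESeq2 in either, beside 1.84% of all tests called higher and 1.6% lower in the first and 0.619% and 0.462% in the second. An unadjusted p under 0.05 was seen for 25 tests in the first sort, 20 of them higher (9.97% of all tests higher, 9.99% lower), and for 26 in the second, 22 of them higher (8.08% of all tests higher, 7.86% lower). In mature neutrophils all 10 estimates were above 0 (median 0.23). IACS-70654 was also set against ctrl, with 2 tests called higher and 7 lower in the CD45+ sort (3.95% and 4.67% of all tests) and 0 and 2 in the c-Kit+ sort (1.96% and 3.05%). Early neutrophil precursors held 5 of the 7 lower calls (H2-K1, H2-Q7, Psmb8, Psmb9 and Tap1), with all 10 estimates below 0 (median -0.52) and 4.19% of all genes called lower.

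The summed level of the 10 genes placed the cell classes in a wide order. Values here are the median over libraries, with the range in brackets. Immature neutrophils were lowest at 1458 CPM (1421 to 1520), next to erythroid progenitors at 1583 (1292 to 1611) and early neutrophil precursors at 1717 (1403 to 1953), whose ranges overlap. Neutrophil progenitors at 2233 (2111 to 2364), monocyte progenitors at 2338 (2263 to 2768) and mature neutrophils at 2609 (2458 to 3031) followed, each overlapping its neighbor, and then stem and multipotent progenitors at 3305 (3046 to 3471), CD45+ marrow monocytes at 3744 (3453 to 4003) and B cells of the same sort at 3923 (3269 to 4214). The B cells in the c-Kit+ sort were at 5180 (4261 to 6038). Immature and mature neutrophils of the marrow did not overlap, and early precursors overlapped immature neutrophils, the lowest library of the 3 classes being an IACS-70654 library of the precursors (1403 CPM).

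Tumor cells, at 4288 CPM, had the widest range, 2187 to 7095, and their lowest libraries lay among the marrow progenitors. Their 4 libraries, which the other tumor classes share, differ by treatment. The cause of the wider range was not tested. Marrow T and NK cells were at 5387 (5037 to 7464) in the CD45+ sort but at 3501 (3455 to 3651) in the c-Kit+ sort. Higher levels stood in neutrophils of the tumor at 6772 (5901 to 7606), dendritic cells at 9439 (8333 to 10309.8), macrophages and monocytes of the tumor at 9829 (7810 to 12054) and T and NK cells of the tumor at 10340.5 (8402 to 12335). The last 3 overlap. The T and NK sums of the tumor also hold macrophage RNA, with the complement genes at 35.7% (vehicle) and 63.2% (IACS-70654) of their macrophage level. Tumor neutrophils lay above the range of marrow neutrophils, and tumor macrophages above that of marrow monocytes, in libraries made and processed apart, so that tissue and library cannot be told apart.

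Across 88 means of a class in a group, taken over that group's libraries, each member was compared with the mean of the 10 genes. That mean was taken over log levels scaled to the same spread. It includes the member itself, so each r sets a part against the whole. H2-K1 followed it most closely (Pearson's r 0.957), then H2-Q4 (0.914), B2m (0.893) and H2-D1 (0.866), and H2-Q6 (0.679) and H2-Q7 (0.675), with the fewest UMIs among the heavy chains, least. Of 9044 genes with enough counts, H2-T22 (r 0.891), a further class I heavy chain gene, was most like the mean among those outside the list. The noncoding RNA Lncpint (0.850), Pfdn5 (0.847), Hivep2 (0.836) and the adhesion molecule gene Icam1 (0.817) followed. These means share libraries and depth, so the values are a description.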

How the data were processed

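Each of the 16 libraries was deposited as a matrix of UMI counts per gene and cell. Per the labels and file headers, the authors tagged cells with CellPlex oligonucleotides, aligned 10x 3′ v3.1 reads to mm10 and assigned cells to samples with Cell Ranger (7.1.0 in the tumor headers, 7.2.0 in the marrow headers). They then used Seurat. The deposited counts are raw and filtered to assigned cells. Doublets between tags were removed by that assignment, and no further caller was applied.

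From the counts, cells with over 200 and under 6000 genes and at most 10% mitochondrial UMIs were kept. Each sort was clustered (2000 variable genes, 30 principal components, 20 neighbours, Leiden at resolution 1, with leidenalg 0.10.2, igraph 0.11.9, scikit-learn 1.9.0, scipy 1.17.1, numpy 2.4.6 and pandas 2.3.3 in Python 3.11.15), and clusters were named from fixed marker lists, so names may differ from those of the study. Classes with under 20 cells in a library were left out there. Counts were summed per class and library. In the marrow, sums were fitted with edgeR 4.0.16 (R 4.3.3, filterByExpr, TMM, quasi-likelihood) over all 6 libraries of a sort, adjusted by Benjamini-Hochberg over all genes of the class, and called at an adjusted p under 0.01 with a log2 change over 0.5. Differences in change between classes were an interaction term in the same kind of fit with library as a block. DESeq2 1.42.0 was an alternative. In the tumor, with 1 library per condition, CPM ratios were taken for genes with at least 20 UMIs in the pair, with exact conditional binomial 95% intervals, which cover counting error only, and a log2 ratio over 0.5 was counted without a test. A count of 0 allows up to 3 counts. The fit was tested on simulated data.

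All 10 members are named, with the other processing and loading genes, Nlrc5 and Irf1, the largest and smallest changes of each other list, and the genes most like the members' mean. H2-T23 and Ciita were named after their values were seen. The members and all lists were chosen with earlier results of these data known, and the promoter motifs after their windows had been seen. Promoters came from RefSeq, where all 10 symbols matched. Alternatives were TMM or library totals, RLE scaling, cell and count filters, removal of the top 5% of doublet scores, resolution 0.5, weighting by cell, each library left out, and the replicate number as a block.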

Additional observations from a re-analysis of the deposited data

Results flagged for a closer look

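The items here were picked out because the change with IACS-70654 against vehicle differed between marrow classes of the CD45+ sort in an edgeR interaction test. In 5 pairs of classes of that sort, 7 differences between changes were called. Positive values mean a higher log2 change in the class named first.

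Between T and NK cells and mature neutrophils H2-K1 differed by 1.47, H2-D1 by 1.16 and B2m by 0.85, and the heavy and light chains had positive estimates in the first class (0.61, 0.50 and 0.40) and negative ones in the second (-0.68, -0.53 and -0.29). The T and NK class rests on 1 vehicle library of 22 cells, which the fit assumes to vary like the other groups. The median share of a cell's UMIs taken by the 10 genes was 0.878% in that library, above the 0.764% and 0.714% of the treated ones.

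Between B cells and mature neutrophils H2-K1 differed by 0.55 (SE 0.15, adjusted p = 0.0066 by edgeR) and H2-Q4 by -1.45 (SE 0.37, adjusted p = 0.0034), with 5.32% of all genes called. With library totals the difference for H2-K1 was 0.24 and was no longer called. H2-Q4 also differed by -1.84 between B cells and monocytes, with 3.54% of all genes called. Between immature and mature neutrophils Tap1 differed by 0.50, with 8.35% of all genes called.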

How the results depend on the processing

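For the CD45+ sort, the 6 calls of members with IACS-70654 against vehicle became 3 with library totals only (an alternative chosen after seeing the data), 3 at resolution 0.5, 26 (2 higher, 24 lower) at an adjusted p under 0.05 with no fold minimum, and 6 to 7 with each library left out in turn. Psmb9 in early neutrophil precursors was at -0.46 with library totals. At resolution 0.5 H2-D1 and H2-K1 in mature neutrophils were both at -0.43. For vehicle against ctrl, library totals moved the median change of all genes in immature neutrophils from -0.04 to -0.26. With them 1803 of the 12486 genes of that class were called lower and 357 higher. Vehicle against ctrl went from 0 calls to 3 with library totals (H2-Q4, H2-Q6 and H2-Q7 in immature neutrophils, all lower), 1 with no cell filter and 13 with the looser rule, and to 0 to 1 with a library left out (1 without ctrl replicate 2 and 1 without vehicle replicate 1). For the c-Kit+ sort, 0 calls with IACS-70654 became 3 at resolution 0.5, 26 with the looser rule (4 higher, 22 lower), 2 with ctrl in place of vehicle and 0 to 3 with a library left out (3 without IACS-70654 replicate 1, 1 without IACS-70654 replicate 2). Apart from the looser rule these calls were all lower. Vehicle against ctrl went from 0 to 14 with the looser rule and stayed at 0 to 0 with a library left out. With ctrl in place of vehicle the CD45+ sort gave 9 calls, 2 higher and 7 lower. The cause of these moves was not tested. The share of all tests that pass the looser rule is not given here. Its counts and their directions are therefore not read as a result about the members.

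Replicate numbers 1 and 2 are shared by the marrow groups, but the labels tie nothing to them, and same-numbered libraries had correlations of their deviations of -0.21 to 0.096. With the replicate block the counts were 6, 0, 0 and 0, as without it.

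In the tumor, counts run over all classes. With IACS-70654 against vehicle 22 higher member values, in classes where 10.3% to 22.3% of all genes were higher, ranged from 18 to 24. The 1 lower (dendritic cells, with 18.2% of all genes lower) became 2 at resolution 0.5 and 0 with a minimum of 100 UMIs. For anti-PD1 against vehicle, 5 higher (neutrophils, T and NK cells, dendritic cells and fibroblasts, where 11.5% to 18.7% of all genes were higher) became 8 in tumor cells without leukocyte UMIs and 0 with 100 UMIs, and 2 lower (dendritic cells and fibroblasts, with 18% and 25.1% of all genes lower) became 1 at resolution 0.5, 0 with TMM or 100 UMIs and 4 as a mean over cells. For the combination against anti-PD1, 1 lower became 3 without the top doublet scores or as a mean over cells and 0 at resolution 0.5 or with 100 UMIs. By class 10.9% to 17.9% of all genes were lower in this pair, so these small counts are not read as a result about the members. For the combination against IACS-70654, 7 higher (4 in fibroblasts, 2 in endothelial cells and 1 in tumor cells, with 18.9%, 17.2% and 5.25% of all genes higher) became 3 with 100 UMIs. In the same pair 1 lower became 0 without the top doublet scores or with 100 UMIs and 3 with T and NK cells without complement gene UMIs. By class 4.88% to 18% of all genes were lower in this pair, so these lower counts are likewise not read as a result. Summed log2 ratios changed sign in dendritic cells at resolution 0.5 (IACS-70654 against vehicle -0.18, combination against IACS-70654 -0.19), in neutrophils with TMM (-0.018), and for anti-PD1 in macrophages as a mean over cells (0.0081) and in tumor cells without leukocyte UMIs (0.43). The tumor has no replicate, and small classes limit both tissues.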

Other observations

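MHC class II genes, which present peptides from outside the cell, were not among the 10 genes. They went apart from class I in tumor macrophages and marrow B cells, and the same way as most of the 10 genes in marrow monocytes. In macrophages and monocytes of the tumor 6 of 7 class II genes were lower by over 0.5 after IACS-70654 (median log2 ratio -1.39, with 11.7% of all genes lower). H2-Ab1 stood at 3398 CPM after vehicle and 1130.3 CPM after IACS-70654, H2-Eb1 at 3059 and 945 CPM, and Ciita, the transactivator of class II genes, at 37.9 and 14.9 CPM, while H2-D1 was higher in the same cells. In the second pair 6 of 7 were lower as well (median -1.07). In marrow monocytes 6 of 7 class II genes fell (edgeR, median log2 change -3.15, with 3.54% of all genes called lower). The estimates of 9 of the 10 class I genes were below 0 there too (median -0.23), with 1 called lower. In marrow B cells 7 of 7 class II genes rose (median 2.19, with 3.56% called higher), while 8 of the 10 class I estimates were below 0. The share of Ighd-high cells in that class also differed between the groups.

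Interferon response genes and class I genes went the same way in part in some classes and apart in another. In tumor macrophages most heavy chain genes and most type I interferon response genes were over 0.5. In mature neutrophils genes of both kinds were called lower, and in marrow monocytes the 2 kinds went apart. In macrophages of the tumor 10 of 14 type I interferon response genes were over 0.5 (median 0.59, with 10.3% of all genes over 0.5), led by Usp18 at 1.095 and Ifit2 at 1.02, and Bst2 was at -0.39, while 0 of 9 other processing and loading genes were over 0.5 (median -0.05). In marrow monocytes 5 of 14 type I interferon response genes rose (median 0.43, with 2.47% of all genes called higher) where H2-Q7 fell. In mature neutrophils, with 11.5% of all genes called higher and 8.61% lower, 4 of 14 fell and 1 rose, 4 of 10 tested interferon gamma response genes fell, and Irf1 was at -0.59 (SE 0.065, edgeR adjusted p = 6.8e-12).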
